A study of Mus musculus with 10 samples.

Results

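Sprr2f, Sprr2g and Sprr1a, 3 of the 28808 genes listed over 10 single-cell libraries of mouse kidney cortex, had next to no transcripts in the control kidney and higher levels in the tubule from day 1 to day 7 after injury. Over all tubule cells, Sprr1a was below Sprr2f and Sprr2g in each library of those days. The 3 genes were chosen by their levels in control and injured tubule, so their levels are given as a description without a test. The control is 1 library of normal kidney, and the injured kidneys were sampled at day 1, day 2 and day 4 (1 library each) and at day 7, day 11 and day 14 (2 libraries each). All mice were 4 weeks old by the labels, which give no kind of injury, strain, genotype, sex or animal for any library, the control included. Nothing states that 2 libraries of a day came from separate animals, so every p-value measures only the spread between libraries, which may be technical.

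The small proline-rich (SPRR) proteins are precursors of the cornified envelope of skin and other stratified epithelia, where transglutaminases cross-link them to one another and to proteins such as loricrin and involucrin under the plasma membrane. Their genes lie together in the epidermal differentiation complex, a cluster of genes for barrier proteins. Several members are known to be induced in simple epithelia after damage, and AP-1, ETS and KLF transcription factors are known regulators of SPRR promoters in keratinocytes. The kidney tubule is a simple epithelium that forms no cornified envelope. Its principal cells, in the collecting duct and connecting tubule, take up water and sodium through aquaporin 2 and the epithelial sodium channel.

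The measurement was Drop-seq, which captures single cells in droplets with barcoded beads and counts the 3′ ends of transcripts by unique molecular identifiers (UMIs). The tables held 64803 cell barcodes and 173806985 UMIs, from 7091848 to 31632205 per library. After filtering, 50378 cells remained, with a median of 1253 to 2662 UMIs per library. Any pair of libraries shared at most 4 cell barcodes. Cells were sorted into gates by the raw UMIs of marker genes. Principal cells, gated on Aqp2, Aqp3, Fxyd4, Scnn1b, Scnn1g, Avpr2 and Hsd11b2, numbered 148 to 513 per library. All 7 of these markers were detected in them at 2 or more times the level of the other cells in each of the 10 libraries. Cells were chosen by these same markers, so this describes the gate and is no independent check of it. The control library was 86.1% gated tubule cells, against 59.3% at day 1, 68.6% at day 2, 69.2% at day 4, 38.2% and 39.9% at day 7 and 81.7% to 91.6% at days 11 and 14. Cells that passed no gate were 28.4% at day 1 and 6.04% in the control. Levels are given as CPM, the UMIs of a gene per 1000000 UMIs of the gate's cells in that library.

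In the mouse genome (GRCm38), the 17 annotated Sprr genes span chr3:92215799-92500493, a stretch of 285 kb. Sprr2f (ENSMUSG00000050635.1) lies on the plus strand at chr3:92365187-92366442 and has 2 exons. Sprr2g (ENSMUSG00000046203.11) lies 7.47 kb further along on the same strand, at chr3:92373915-92375229, and is annotated as a polymorphic pseudogene. Sprr1a (ENSMUSG00000050359.7) lies on the minus strand at chr3:92483952-92485895, 109 kb from Sprr2g, and also has 2 exons. Because family members can be near-identical, every stretch of 50 bases in the last 500 bases of each transcript was compared with those of the other Sprr genes. Sprr2f shared 4 of 451 such stretches (0.887%), and Sprr2g and Sprr1a shared 0 of 451 each. By exact matches, nearly all of the 3′ ends of these 3 genes were thus distinct, unlike Sprr2a1, which shares all 451 of its stretches with Sprr2a2. Near matches that differ by a few bases were not counted, and how the authors assigned reads is not known.

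The 250 bases before the RefSeq transcript start are shown for Sprr2f, for its neighbour Sprr2e, which had almost no transcripts in these kidneys, and for Sprr1a, because the first and last of these genes had different patterns over cell types. The sequences are from RefSeq (GRCm38.p6), 5′ to 3′ on the strand of the gene, at chr3:92364937-92365186 (plus strand), chr3:92351893-92352142 (plus strand) and chr3:92485882-92486131 (minus strand). Capitals mark matches to AP-1 (TGANTCA), KLF (CACCC, here as GGGTG on the other strand) and TATA box (TATAAA) motifs.
Sprr2f: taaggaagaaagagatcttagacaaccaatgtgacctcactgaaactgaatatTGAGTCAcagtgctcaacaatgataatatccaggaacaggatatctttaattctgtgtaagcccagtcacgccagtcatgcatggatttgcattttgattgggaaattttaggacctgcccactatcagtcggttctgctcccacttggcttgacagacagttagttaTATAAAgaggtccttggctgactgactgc
Sprr2e: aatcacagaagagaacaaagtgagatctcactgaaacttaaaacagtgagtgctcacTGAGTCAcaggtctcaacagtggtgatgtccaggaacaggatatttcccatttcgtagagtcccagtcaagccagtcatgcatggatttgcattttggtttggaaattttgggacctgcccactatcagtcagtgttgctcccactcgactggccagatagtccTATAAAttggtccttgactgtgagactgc
Sprr1a: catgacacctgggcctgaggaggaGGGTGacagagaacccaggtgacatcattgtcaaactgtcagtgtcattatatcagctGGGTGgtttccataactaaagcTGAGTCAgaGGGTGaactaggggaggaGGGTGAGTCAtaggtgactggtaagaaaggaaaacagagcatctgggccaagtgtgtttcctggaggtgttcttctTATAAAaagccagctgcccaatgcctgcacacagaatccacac

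Sprr2f and Sprr2e each held 1 AP-1 match, at 197 to 191 bases and at 193 to 187 bases before the start, and a TATA match from 29 to 24 bases before it. Sprr1a held 2 AP-1 matches, at 146 to 140 and at 116 to 110 bases before the start, 4 KLF matches, of which the last overlaps an AP-1 match, and a TATA match from 43 to 38 bases before it. In none of these 3 windows was there a match to STAT (TTCNNNGAA), ETS (CCGGAA) or an interferon-stimulated response element. Both strands were searched. Of 32851 RefSeq promoters cut to the same length, 6.75% held the AP-1 letters, 52.0% the KLF letters, 12.4% the TATA letters, 7.02% STAT, 12.03% ETS and 2.98% the interferon element. Of the 14 Sprr promoters among them, 9 held AP-1, 10 TATA, 5 KLF, 1 STAT and 0 ETS. Sprr2g had no promoter in this set, so its sequence was not searched. A match to these letters is a description of the sequence and not a measured binding site.

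Sprr2f was the most abundant of the 3 genes. In principal cells it had 0 UMIs in the control (244 cells), which allows up to 2.06 CPM, 5010 UMIs at day 1 (303 cells), 2016 at day 2 (321 cells), 1988 at day 4 (414 cells), 767 and 1317 at day 7 (350 and 513 cells), 0 and 4 at day 11 (197 and 148 cells) and 0 and 0 at day 14 (270 and 328 cells). The level in those cells was 5491 CPM at day 1 (95% exact Poisson interval 5340 to 5646), 1222 at day 2 (1169 to 1276) and 1157 at day 4 (1106 to 1209). It was 758 and 515 in the 2 libraries of day 7 (mean 637 ± 172, SD, n = 2). The highest library was that of day 1, the intervals of days 2 and 4 overlapped, and the levels of days 11 and 14 were at 9.84 or lower. The 5 libraries from day 1 to day 7 did not overlap with the control or with the 4 libraries of days 11 and 14. The gene was chosen for its absence in control tubule and high levels after injury, so this separation is only a description. These intervals cover counting error only and treat the UMIs of a cell as independent, and days 1, 2 and 4 have no replicate.

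Sprr2g followed the same order at a lower level. In principal cells its level was 0 in the control, 1030 CPM at day 1 (interval 966 to 1098), 544 at day 2 (509 to 580), 357 at day 4 (330 to 387), and 176 and 145 at day 7 (mean 160 ± 22.1, SD, n = 2). The libraries of days 11 and 14 held 1, 0, 1 and 0 UMIs. Sprr2g was below Sprr2f in each of the 5 libraries from day 1 to day 7, and its interval at day 2 lay above that at day 4. Because levels were not divided by transcript length and 3′ counting gives about 1 UMI per captured molecule whatever the length, the 2 genes are compared here as molecules captured. The fraction of their joint UMIs that came from Sprr2g in principal cells was 15.8% at day 1 (95% exact binomial interval 14.9 to 16.8), 30.8% at day 2 (29.1 to 32.5), 23.6% at day 4 (22.0 to 25.3), and 18.8% (16.4 to 21.5) and 21.9% (19.98 to 24.0) at day 7. The fraction was highest in the 1 library of day 2, where the 10 highest cells held 41.8% of the Sprr2f and 42.0% of the Sprr2g UMIs, and a difference between days was not tested.

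**Figure D1:**
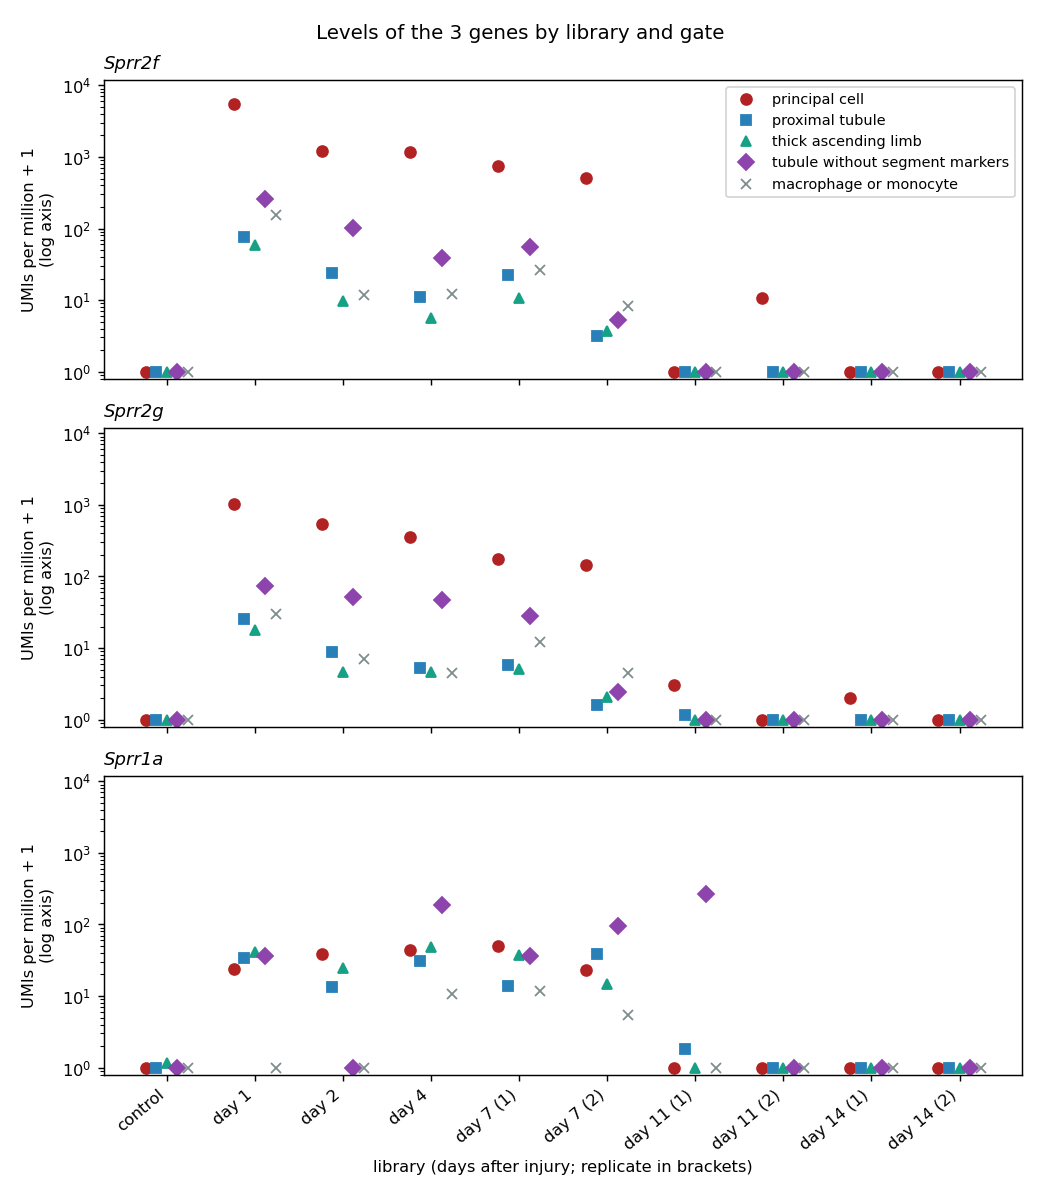
Levels of Sprr2f, Sprr2g and Sprr1a in 5 gates. The horizontal axis gives the 10 libraries, the vertical log axis CPM plus 1 (UMIs per 1000000), and each point is 1 library and gate. Principal cells lie above the other 4 gates for Sprr2f and Sprr2g from day 1 to day 7, with Sprr2f from 515 to 5491 CPM, and within the range of the other tubule gates or near it for Sprr1a.

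Both Sprr2 genes were concentrated in principal cells. At day 1, principal cells were 8.92% of the cells and held 80.7% of all Sprr2f UMIs. At day 2 they were 8.25% of cells with 76.4% of the UMIs, at day 4 6.77% with 84.4%, and in the day 7 libraries 10.1% with 73.5% and 10.46% with 85.4%. For Sprr2g the same cells held 68.3% at day 1, 78.8% at day 2, 77.0% at day 4 and 59.3% and 76.6% at day 7. Among tubule cells outside the principal gate, 1 cell at day 1 and 1 at day 2 reached 10 Sprr2f UMIs, against 90 and 51 inside it.

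The order of gates below the principal cells was less distinct. At day 1, Sprr2f was at 255 CPM in tubule cells without segment markers (206 to 311), 185 in intercalated cells (128 to 259), the acid- and base-transporting cells of the collecting duct, 152 in macrophages (87.0 to 247), 114 in endothelium (79.5 to 159), 74.5 in proximal tubule (65.2 to 84.7), 57.2 in thick ascending limb (45.4 to 71.1) and 37.7 in distal convoluted tubule (10.3 to 96.6). Neighbours in that order had overlapping intervals. The exception among the other gates was that of neutrophils at day 1, where 48 cells held 79 Sprr2f UMIs, or 1208 CPM (957 to 1506), between the principal cells and all others. At day 2 neutrophils were at 64.5, from 4 UMIs. At day 7 the proximal tubule was at 21.5 and 2.19, thick limb at 9.67 and 2.68, and macrophages at 24.9 and 7.23.

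Free RNA in a droplet gives UMIs to cells that do not express a gene, and macrophages, which should lack these epithelial genes, give the level to compare with. The share of principal cells with a Sprr2f UMI was 67.3% at day 1, 38.3% at day 2, 25.6% at day 4 and 41.1% and 26.9% at day 7 (mean 34.0 ± 10.1, SD, n = 2). In macrophages it was 21.5%, 3.73%, 1.83%, 3.08% and 1.501%, at median depths of 1325, 2570, 1490, 1223 and 1724 UMIs, against 1899, 3136, 2065, 1652 and 2484 in principal cells. In the same libraries the share in proximal tubule was 18.7%, 8.63%, 3.75%, 4.68% and 1.03%. With each cell thinned to 1000 UMIs, the principal shares were 59.7% of 265 cells, 29.9% of 296, 22.0% of 345, 32.5% of 277 and 16.7% of 449, the macrophage shares 13.2% of 44, 1.39% of 223, 1.21% of 598, 1.92% of 738 and 0.802% of 1264, and the proximal shares 9.501% of 819, 3.85% of 1599, 1.48% of 2537, 2.29% of 347 and 0.450% of 613. The principal share was thus far above the macrophage share in all 5 libraries. By CPM the proximal tubule was below the macrophages in 4 of these libraries, and above them at day 2, at 22.5 (19.5 to 25.9) against 10.9 (4.99 to 20.7). Its thinned share was above theirs at day 2, at day 4 and in day 7 replicate 1, and below it at day 1 and in day 7 replicate 2. The part of free RNA in the proximal values was not tested.

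**Figure D2:**
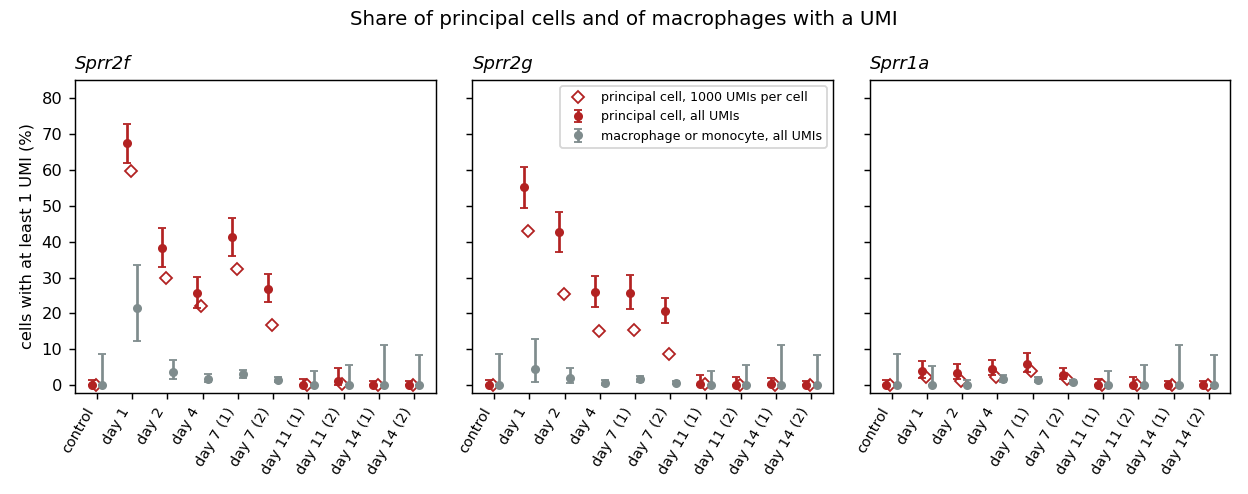
Share of cells with at least 1 UMI of each gene, in percent, for principal cells and macrophages in the 10 libraries. Filled points use all UMIs with their 95% exact binomial intervals, and open diamonds use principal cells thinned to 1000 UMIs. Sprr2f reached 67.3% of principal cells at day 1 and 1.35% or less at days 11 and 14, while Sprr1a stayed at 6% or less.

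Sprr2f was uneven among principal cells. The median principal cell held 3 UMIs at day 1 and 0 in the other libraries, and the highest cells held 808 at day 1, 115 at day 2, 342 at day 4 and 78 and 124 at day 7. Cells with 10 or more Sprr2f UMIs were 29.7% of principal cells at day 1, 15.9% at day 2, 8.94% at day 4 and 4.57% and 5.07% at day 7, and they held 91.8%, 90.03%, 88.8%, 44.9% and 72.4% of the principal cells' Sprr2f UMIs. The 10 highest cells alone held 43.5%, 41.8%, 63.9%, 36.4% and 50.5%. A CPM of principal cells is thus the mean of few cells with very many transcripts and many with none. For Sprr2g the cells with 10 or more UMIs numbered 23, 25, 13, 0 and 8, and the 10 highest cells held 31.9%, 42.0%, 56.7%, 31.5% and 53.8%.

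The 2 genes were found in the same cells. At day 1, Sprr2g was detected in 74.0% of principal cells with a Sprr2f UMI and in 16.2% of those without one. The figures were 78.0% and 20.7% at day 2, 54.7% and 15.9% at day 4, 36.8% and 18.0% in day 7 replicate 1 and 52.2% and 9.07% in day 7 replicate 2. Cells with a Sprr2f UMI were also deeper, with medians of 2188 against 1403 UMIs at day 1, 4190 against 2690 at day 2, 2580 against 1967 at day 4, and 2053 against 1475 and 4103 against 2110 at day 7, and the part of depth in these shares was not tested. Principal cells with both genes numbered 151, 96, 58, 53 and 72. Sprr1a was rarer: in principal cells with a Sprr2f UMI it was detected in 4.90%, 6.50%, 9.43%, 7.64% and 5.80%, against 2.02%, 1.52%, 2.92%, 4.85% and 1.87% in those without.

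**Figure D3:**
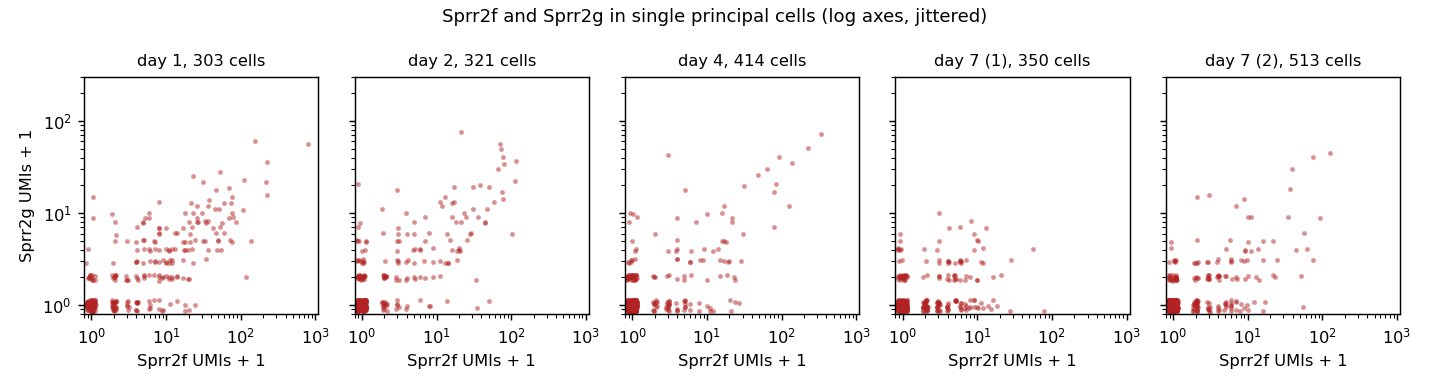
Sprr2f against Sprr2g UMIs in each principal cell of the 5 libraries from day 1 to day 7. Both log axes show UMIs plus 1 with a small jitter, and each point is 1 cell. Many cells lie at 0 for both genes, and the cells highest in Sprr2f, up to 808 UMIs at day 1, mostly hold Sprr2g as well.

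Sprr1a had another distribution. Over all tubule cells it had 1 UMI in the control, or 0.0391 CPM, in a cell of the thick ascending limb. It was at 34.1 CPM at day 1, 16.8 at day 2, 36.6 at day 4, 41.1 and 31.8 at day 7 (mean 36.5 ± 6.62, SD, n = 2), 8.82 and 0 at day 11 and 0 and 0 at day 14. The tubule level of Sprr1a at day 4 and day 7 was about that of day 1, whereas Sprr2f in the same cells was at 895 at day 1, 189 at day 2, 130 at day 4 and 253 and 155 at day 7 (mean 204 ± 68.8, SD, n = 2). Sprr2g was at 181, 82.1, 42.3 and 67.0 and 46.1 (mean 56.5 ± 14.8, SD, n = 2). In day 11 replicate 1, 2 cells held 92.6% of the 81 tubule UMIs of Sprr1a, 51 UMIs in 1 intercalated cell and 24 in 1 cell without segment markers. The day 11 level therefore rests on these cells.

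The tubule gate with the highest Sprr1a level changed between libraries. In proximal tubule, the segment that reabsorbs most of the filtrate, Sprr1a was at 32.6 CPM at day 1 (26.5 to 39.6), 12.2 at day 2 (10.02 to 14.8), 30.3 at day 4 (27.3 to 33.6) and 12.7 (6.76 to 21.7) and 38.1 (31.6 to 45.5) at day 7. In principal cells it was at 23.0 (14.3 to 35.2), 38.2 (29.3 to 48.9), 42.5 (33.3 to 53.4), 48.4 (35.8 to 64.0) and 21.9 (16.5 to 28.4). In thick ascending limb it was at 40.2, 23.6, 47.2, 35.9 and 13.96. Intercalated cells were at 49.1, 0, 0, 245 (171 to 341) and 26.3, and the 245 of day 7 replicate 1, the highest tubule gate of that library, came from 35 UMIs in 7 of 59 cells. Tubule cells without segment markers were at 34.8, 0, 187 (145 to 236), 34.9 and 93.3 (71.97 to 119), the highest gate at day 4 and in day 7 replicate 2, from 69 UMIs in 16 cells and 65 in 15. Distal convoluted tubule was at 66.03 at day 1, from 7 UMIs, and had 1 UMI or none in the other 4 libraries. Principal cells were above proximal tubule at day 2 and in day 7 replicate 1 and below it in day 7 replicate 2, so the order of the segments changed between the 2 libraries of day 7. Macrophages were at 0 at day 1 (up to 35.1) and day 2 (up to 4.47), at 9.69 at day 4 (5.30 to 16.3) and at 10.7 (6.33 to 16.9) and 4.40 (2.41 to 7.39) at day 7. The proximal tubule was above them by intervals that do not overlap at day 2, at day 4 and in day 7 replicate 2, and not at day 1 or in day 7 replicate 1. Over all tubule cells outside the principal gate, few cells held 10 or more Sprr1a UMIs. They held 42.1% of its UMIs at day 2 (2 cells), 23.9% at day 4 (7) and 56.8% in day 7 replicate 2 (5). The intervals do not cover such unevenness.

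The share of proximal tubule cells with a Sprr1a UMI was 5.80%, 2.02%, 5.96%, 3.04% and 4.71% in the 5 libraries, against 0% of 65 macrophages (which allows up to 4.62%), 0% of 241 (up to 1.245%), 1.70%, 1.54% and 0.887%. Thinned to 1000 UMIs, it was 2.204%, 0.674%, 2.63%, 1.40% and 1.72%, against 0%, 0%, 0.924%, 0.698% and 0.651%. The thinned shares of days 1 and 2 rest on 44 and 223 macrophages, too few to show a difference of that size.

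Of the joint UMIs of the 3 genes, Sprr1a was 0.352% in principal cells at day 1, 2.12% at day 2, 2.73% at day 4 and 4.93% and 3.21% at day 7. In proximal tubule it was 24.7%, 28.7%, 67.9%, 32.5% and 93.1%. The 3 genes were thus in different ratios in the 2 segments of the same library, and the part of free RNA in the proximal UMIs was not tested.

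Outside the principal gate, Sprr1a was compared between cells with a UMI of Vcam1, a marker of injured proximal tubule, cells with Havcr1 (kidney injury molecule 1) but no Vcam1, and cells with neither. At day 4 it was at 52.2, 22.2 and 20.7 CPM in these 3 classes (1299, 970 and 1545 cells) and was detected in 11.1%, 4.54% and 2.39% of them. In day 7 replicate 2 it was at 58.9, 24.96 and 17.8. Day 1 gave 38.0, 36.5 and 35.0, day 2 gave 14.7, 43.3 and 8.22, and day 7 replicate 1 gave 14.2, 94.6 and 35.5. The Havcr1 values rest on few cells, with 53 UMIs in 6 cells at day 2 and 38 in 9 cells in day 7 replicate 1, and at days 1 and 4 they were close to those of the class with neither marker. The shares were 11.1%, 5.64% and 4.39% at day 1, 6.06%, 3.68% and 1.73% at day 2, 3.83%, 4.92% and 3.21% in day 7 replicate 1 and 7.06%, 5.33% and 2.80% in day 7 replicate 2. By share both marked classes were above the class with neither in all 5 libraries. The marked classes were also deeper, with medians of 2928 and 1734 UMIs against 1670 at day 4, and the part of this in the shares was not tested. Sprr2f outside the principal gate had a lower CPM in cells with Vcam1 than in cells with neither marker in all 5 libraries, at 36.4 against 119, 6.21 against 30.3, 7.72 against 13.7, 11.8 against 47.7 and 1.15 against 9.57. The share of cells with a Sprr2f UMI was higher in the Vcam1 class at day 4 and lower in the other libraries, at 20.4% against 20.9%, 6.67% against 8.45%, 3.85% against 3.56%, 3.48% against 7.62% and 0.662% against 2.07%. The Vcam1 cells were deeper in each library, with a median of 3050.5 against 1434 UMIs at day 1, and the part of depth and of free RNA in these values was not tested.

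Urothelium, the lining of the renal pelvis, is a stratified epithelium known for SPRR expression, and some of it can enter a kidney suspension. Its gate, set on uroplakins, Psca, Krt5 and Krt15, held 0 cells in the control, 5 at day 1, 2 at day 2, 6 at day 4, 3 and 16 at day 7, 13 and 0 at day 11 and 0 at day 14. Each of these cells had Sprr1a, at 3079 CPM at day 1, 7565 at day 2, 6526 at day 4, 6284 and 9829 at day 7 and 3652 in day 11 replicate 1. At no more than 0.326% of the cells, they held 16.8%, 61.4%, 8.12%, 10.8%, 49.8% and 63.3% of the Sprr1a UMIs of their libraries. They had 3, 1, 2, 0, 5 and 0 UMIs of Sprr2f, and Sprr1a was 92.1% to 100% of their UMIs of the 3 genes. Sprr1a was thus high in urothelial cells and Sprr2f and Sprr2g in principal cells. Since the control and the day 14 libraries held no such cell, the level of Sprr1a in them before and after the injury was not measured.

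Of the other Sprr genes, 4 had most of their UMIs in the urothelial cells. Of 13 other members in the tables, Sprr2a1, Sprr2a2 and Sprr2a3 had 747, 764 and 604 UMIs over the 10 libraries, of which 81.8%, 80.6% and 88.6% were in the urothelial cells, and Sprr2b had 101, of which 87.1% were there. Sprr2a1, Sprr2a2 and Sprr2a3 share most of their 3′ ends, so their separate counts are uncertain. For Sprr2f and Sprr2g the urothelial part was 0.080% of 13796 and 0.243% of 4110 UMIs, and for Sprr1a 32.6% of 3368. The nearest relatives of Sprr2f by position were close to absent: Sprr2d had 26 UMIs, 19 of them in principal cells, Sprr2e had 29, 7 of them there, and Sprr2h had 22, 1 of them there and 17 in tubule cells. Sprr2i had 9, Sprr2j-ps 4, Sprr2k 3, Sprr1b 14 (10 in tubule cells), Sprr3 1 and Sprr4 1. Principal cells therefore held 2 of the clustered genes at high levels and the genes on either side of them at almost none.

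**Figure D4:**
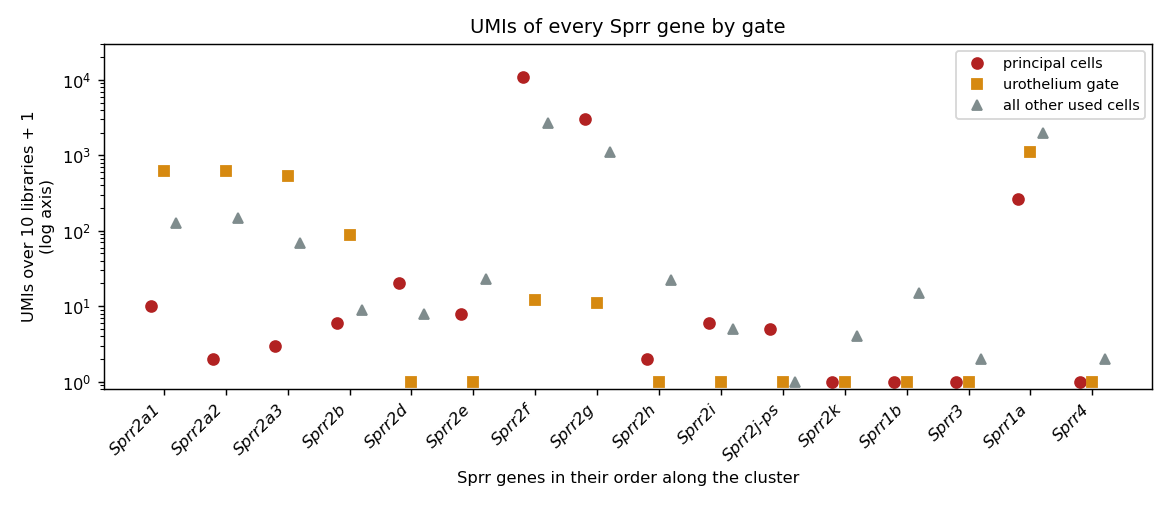
UMIs of the 16 Sprr genes with at least 1 UMI, in their order along the cluster. The vertical log axis gives UMIs summed over the 10 libraries plus 1, for principal cells, the urothelial gate and all other cells. Sprr2f and Sprr2g stand out in principal cells with 11102 and 3001 UMIs, and the Sprr2a genes in the urothelial gate with 535 to 616.

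The genes whose level over the 10 tubule sums was most like Sprr2f, by Pearson's r of log2(CPM + 1) among 10624 genes with a mean of at least 5, were Sprr2g and Arhgap11a (both 0.994), Ccna2, Atl3 and Tacc3 (each 0.989). For Sprr2g they were Arhgap11a, Sprr2f (both 0.994), Tacc3 (0.993), Diap3 and Ckap2 (both 0.989). Ccna2 encodes cyclin A2, and Tacc3 and Ckap2 encode proteins of the mitotic spindle. For Sprr1a they were Dhrs7 (0.969), C1rb (0.967), Anxa3 (0.962), Tnfrsf1a (0.960) and Obfc1 (0.959), and its r was 0.900 with Sprr2f and 0.926 with Sprr2g. These values describe 10 libraries that differ in depth and cell mixture, and they carry no p-value. The part of those differences in r was not tested. Arhgap11a was at 1.60 CPM in the control, 24.5, 12.4 and 11.2 at days 1, 2 and 4, 13.2 and 9.79 at day 7, 1.74 and 1.21 at day 11 and 1.41 and 1.15 at day 14. Summed over the positive and the matched negative principal cells described next, in which Sprr2f was at 2438 against 0 CPM by construction, Arhgap11a was at 16.2 against 15.5 CPM, Ccna2 at 18.8 against 14.9, Tacc3 at 17.2 against 14.9, Diap3 at 26.4 against 16.6, Atl3 at 23.2 against 19.02 and Ckap2 at 10.8 against 14.3. In the pairs of all tubule cells Arhgap11a was at 23.01 against 9.77, Ccna2 at 25.3 against 16.8, Tacc3 at 25.6 against 17.4, Diap3 at 24.3 against 19.01, Atl3 at 20.5 against 18.5 and Ckap2 at 12.3 against 15.2.

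To see what else differed in the cells that held these transcripts, tubule cells with 2 or more UMIs of the 3 genes were paired with cells of the same library and gate that had none. Paired cells had at most 25% between their total UMIs without those of the 3 genes, and the pairs were summed per library. Over the 5 libraries from day 1 to day 7, with 131 to 211 pairs each, 597 of 8230 genes passed (7.25%), 249 (3.03%) higher and 348 (4.23%) lower in the positive cells, by edgeR's quasi-likelihood test with the library as a block and Benjamini-Hochberg adjustment. Among called genes that averaged 5 or more in log2 CPM and went 1 way in every library, those higher by the most included Sfn (stratifin, a 14-3-3 protein of epithelia), by a log2 change of 1.97 (SE 0.185), Il1f6 (interleukin 36 alpha), by 1.89, S100a14, by 1.77, Lgals9 (galectin 9), by 1.58, Akr1b8 and Aqp4 (aquaporin 4, the basolateral water channel of principal cells), both by 1.51, 1600029D21Rik, by 1.45, Krt19, by 1.43, and Ifitm3, by 1.38. Those lower by the most under these limits of level and direction were tissue kallikreins, Klk1b4 (-2.86), Klk1b3 (-2.59), Klk1b27 (-2.56), Klk1b5 (-2.51), Klk1b9 (-2.33), Klk1 (-2.32) and Klk1b21 (-2.26), with Cyp2e1 (-2.53), Emx1 (-1.91) and Cd36 (-1.85). Slc7a13 (-3.08) and Ces1f (-2.66), which did not meet both limits, were also lower, and were higher in the positive cells of 0 of the 5 libraries. Of the 15 proximal markers tested, 14 were lower. Of 2 endothelial markers tested, Plat was higher, by 1.22, and endothelial markers had 597 UMIs in the positive and 301 in the negative cells, 298 and 125 of them at day 4. The median mitochondrial share was lower in the positive cells of each library, at 8.87% against 12.2% at day 2 and 5.31% against 7.49% at day 4. The part of these in the result was not tested. The count was smaller, 255, without day 4, 347 without day 2 and 376 without day 7 replicate 2, and 223 by DESeq2. As these cells mix principal cells with cells of other gates, 2 further comparisons, chosen after seeing the data, were made. They took principal cells with Sprr2f and Sprr2g and, outside that gate, cells with Sprr1a. Positive cells outside the gate with fewer than 2 Sprr1a UMIs entered neither. There, cells with 2 or more Sprr2f UMIs numbered 69, 22, 7, 10 and 6 in the 5 libraries. Those with 2 or more Sprr1a UMIs numbered 26, 13, 83, 10 and 25.

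Among principal cells, those with 2 or more UMIs of Sprr2f and Sprr2g had less kallikrein and more of several epithelial and injury genes than the negative cells matched to them. By all UMIs, those of the 3 genes included, the match left the positive cells somewhat deeper, with medians of 1626 against 1332 UMIs at day 1, 3698 against 3214.5 at day 2, 3266 against 3252 at day 4, and 2106.5 against 1930 and 3660.5 against 3656 at day 7. The pairs held 81 of 184 positive cells at day 1, 104 of 128 at day 2 and 97 of 107 at day 4. At day 7 they held 100 of 120 and 98 of 117. The paired positive cells had 4527 Sprr2f UMIs, against 11102 in all principal cells of the 10 libraries. In 5 libraries with 81 to 104 pairs, 328 of 5929 genes passed (5.53%), 175 (2.95%) higher and 153 (2.58%) lower, by edgeR's quasi-likelihood test with the library as a block and Benjamini-Hochberg adjustment, and 250 of them moved the same way in all 5 libraries. Klk1, tissue kallikrein, a protease made in the connecting tubule, was at 2350 CPM (scaled by TMM, as in the other values of these comparisons) in positive and 24662 in negative cells at day 1, 3175 and 42172 at day 2, 967 and 5757 at day 4, and 962 and 3634, and 955 and 6063 at day 7. Its level was lower in the positive cells of every library, by a log2 change of -2.87 (SE 0.187, adjusted p = 3.32e-11 by edgeR with Benjamini-Hochberg adjustment). Moving 1 way in every library was part of the rule by which Klk1 was named. Its paralogs Klk1b21 (-3.42), Klk1b4 (-3.40), Klk1b27 (-3.16), Klk1b3 (-3.16), Klk1b5 (-3.06) and Klk1b9 (-2.93) were lower too, but these copies are near-identical and their reads may be shared. Also lower were Trabd2b (-2.62) and Sfrp1 (-2.49), secreted or surface inhibitors of Wnt signals, and Atp2b4 (-2.48), a calcium pump of the plasma membrane. Emx1 was lower by -2.33.

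Calbindin, Calb1, which marks distal convoluted and connecting tubule, was lower in the positive principal cells as well, by a log2 change of -0.76 (SE 0.125, adjusted p = 0.000211 by edgeR with Benjamini-Hochberg adjustment). Of the 7 principal markers tested, Fxyd4 (0.81) and Aqp2 (0.59) were higher, Scnn1g (-0.46) was lower, and Aqp3, Scnn1b, Avpr2 and Hsd11b2 did not pass. Aqp2 was at 7237 CPM in positive and 2611 in negative cells at day 1, 6385 and 3395 at day 2, 6297 and 5557 at day 4, and 2033 and 1562, and 3240 and 3052 at day 7. The difference was therefore large at days 1 and 2 and small in the later libraries. The positive and negative cells thus differed in markers of position along the collecting system, and the part of this in the other differences was not tested.

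The genes higher in the positive principal cells included enzymes, transcription factors and surface proteins. Ldhd (mitochondrial D-lactate dehydrogenase) was at 661 and 98.5 CPM in positive and negative cells at day 1, 261 and 43.5 at day 2, 80.4 and 28.6 at day 4, and 58.0 and 16.7, and 82.8 and 29.6 at day 7. Its log2 change was 2.09 (SE 0.218, adjusted p = 2.42e-07 by edgeR with Benjamini-Hochberg adjustment), and the positive cells were higher in each library, as the naming rule required. Sfn was at 187 and 49.3, 121 and 16.7, 96.9 and 11.01, 108 and 45.9, and 78.9 and 29.6 in the same order, a log2 change of 2.01 (SE 0.261). Klf5, a zinc finger factor of collecting duct epithelium, and Elf5, an ETS factor of principal cells, were higher by 1.72 (SE 0.311) and 1.68 (SE 0.308), as was Bok, a relative of BCL-2, by 1.92. Muc1 (a membrane mucin, 1.64), Ifitm3 (an interferon-induced membrane protein, 1.64), Man1a (a mannosidase of glycoprotein processing, 1.64), S100a14 (1.71) and Plac8 (1.80) completed the list. Krt19, a keratin of simple epithelia, was higher by 1.57 and Aqp4 by 1.46.

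Of the injured tubule list, 13 of 22 tested genes were higher and 1 lower in the positive principal cells, with a median log2 change of 0.52 against 0.01 for all genes tested. Of all genes tested in these cells, 2.95% were higher and 2.58% lower, the shares to set beside each list count here. Lcn2 (lipocalin 2, an injury marker secreted by the distal nephron) was at 3521 and 2463 CPM in positive and negative cells at day 1, 3059 and 642 at day 2, 4839 and 1145 at day 4, and 2879 and 1863, and 4393 and 1581 at day 7, a log2 change of 1.40. Krt8 (0.66) and Cd24a (0.42) were higher. Spp1 (osteopontin) was lower, by -0.80, at 8516 and 20012 at day 1, 3679 and 6257 at day 2, 2859 and 3324 at day 4, and 2207 and 3851, and 3148 and 6112 at day 7. Injury genes therefore did not all follow Sprr2f from cell to cell. Of the factors that may act on SPRR promoters, Klf5 and Klf6 (0.39) were higher among 10 tested genes of the Klf, Ets and Grhl list, and Atf3 (1.15, higher in 3 of 5 libraries) among 11 of the gp130, STAT3 and AP-1 list. Of 5 tested cornified envelope genes 0 passed, with 2 at an unadjusted p under 0.05. Of 8 genes of the reactive oxygen and glutathione list 3 were lower, the metallothioneins Mt1 (-0.91) and Mt2 (-0.93) and Gclc (-0.66), a subunit of the enzyme that starts glutathione synthesis.

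The positive principal cells had a lower mitochondrial share of UMIs than the negative ones, with medians of 8.98% and 14.3% at day 1, 8.37% and 13.3% at day 2, 4.61% and 7.22% at day 4, and 4.22% and 4.79%, and 5.07% and 6.51% at day 7. Its part in the result was not tested. Of the other cell types, macrophage markers had 444 UMIs in the positive and 392 in the negative cells (125 to 636 and 113 to 710 CPM), endothelial markers 96 and 90, fibroblast markers 103 and 100, neutrophil markers 113 and 60, of which 60 and 2 were at day 4, T, NK and B cell markers 21 and 35, and podocyte markers 40 and 43. The 7 urothelial markers had 10 and 5 UMIs, and Upk1b, Upk2, Psca and Krt15 were at 0 in the positive cells. The count of 328 genes was 204 without day 2, 205 without day 7 replicate 2 and 155 by DESeq2.

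Outside the principal gate, tubule cells with 2 or more Sprr1a UMIs held less of the proximal transcripts than their matched neighbours. Day 1, day 4 and day 7 replicate 2 gave 22, 82 and 24 pairs, and 139 of 4354 genes passed (3.19%), 34 (0.781%) higher and 105 (2.41%) lower, by edgeR's quasi-likelihood test with the library as a block and Benjamini-Hochberg adjustment. Day 2 and day 7 replicate 1, with 11 and 10 pairs, were left out. Proximal tubule cells made up 15, 63 and 12 of the paired positive cells. Among all tubule cells outside the principal gate in the same libraries, 965 of 1713, 3122 of 3814 and 680 of 1444 were proximal. Of the 13 proximal markers tested, 11 were lower, and their summed level was 1338 to 3670 CPM in the positive and 3514 to 12020 in the negative cells. Slc22a6 (organic anion transporter 1) was at 78.9 and 380 at day 1, 56.8 and 511 at day 4 and 13.8 and 87.1 in day 7 replicate 2. It was lower in each library, as the naming rule required, by a log2 change of -2.83 (SE 0.248, adjusted p = 5.24e-05 by edgeR with Benjamini-Hochberg adjustment). Also lower were Ces1f (-3.67), Slc22a30 (-3.50), Pck1 (the gluconeogenic enzyme, -3.43), Cyp2e1 (-3.28), Slc22a12 (the urate transporter, -2.92), Acy3 (-2.56), Kap (kidney androgen-regulated protein, -2.55), Hao2 (-2.41) and Hba-a1, a haemoglobin gene (-3.12).

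Under the same limits on level and direction, Sfn was higher by the most, at 231 and 18.4 CPM in Sprr1a-positive and negative cells at day 1, 51.8 and 8.996 at day 4 and 115 and 41.3 in day 7 replicate 2, a log2 change of 2.40 (SE 0.397, adjusted p = 0.00270 by edgeR with Benjamini-Hochberg adjustment). Il1rn (the interleukin 1 receptor antagonist) was higher by 2.14, at 62.0 and 30.7, 105 and 36.0, and 203 and 4.59. Il1f6 was higher by 1.93, from 28.2 against 0, 226 against 52.2 and 268 against 91.7. Akr1b8 (an aldo-keto reductase, 2.01), Gm10639 (1.71), Nipsnap3b (1.48), Gsta2 (a glutathione transferase, 1.45) and Cldn4 (a tight junction claudin, 1.35) were also higher. Of the injured tubule list 8 of 25 tested genes were higher and 0 lower, among them Havcr1 (1.003), Krt8 (0.96), Clu (0.84) and Anxa2 (0.83), with a median over the list of 0.66. Havcr1 was at 3586 and 1724, 3147 and 1549, and 2095 and 1101, about the same ratio in the 3 libraries. None of the genes of 4 other lists passed with edgeR: 0 of 10 for gp130, STAT3 and AP-1 (0 at an unadjusted p under 0.05), 0 of 7 for Klf, Ets and Grhl factors (0), 0 of 4 for the cornified envelope (2) and 0 of 8 for reactive oxygen and glutathione (2). Of all 4354 genes tested, 0.781% were higher and 2.41% lower, so counts of 0 in lists this small say little about them.

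Urothelial markers had 1 UMI in the Sprr1a-positive and 13 in the negative cells, and 6 of the 7 were at 0 in the positive ones. Of endothelial markers the 1 gene tested, Plat, was higher, with 353 endothelial marker UMIs against 153, of which 261 and 100 were at day 4. The median mitochondrial share was 10.53% against 10.62% at day 1, 5.52% against 7.28% at day 4 and 4.15% against 4.39% in day 7 replicate 2. The part of these in the result was not tested. The count of 139 genes was 48 without day 4, 225 without day 7 replicate 2, 364 without day 1 and 48 by DESeq2.

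**Figure D5:**
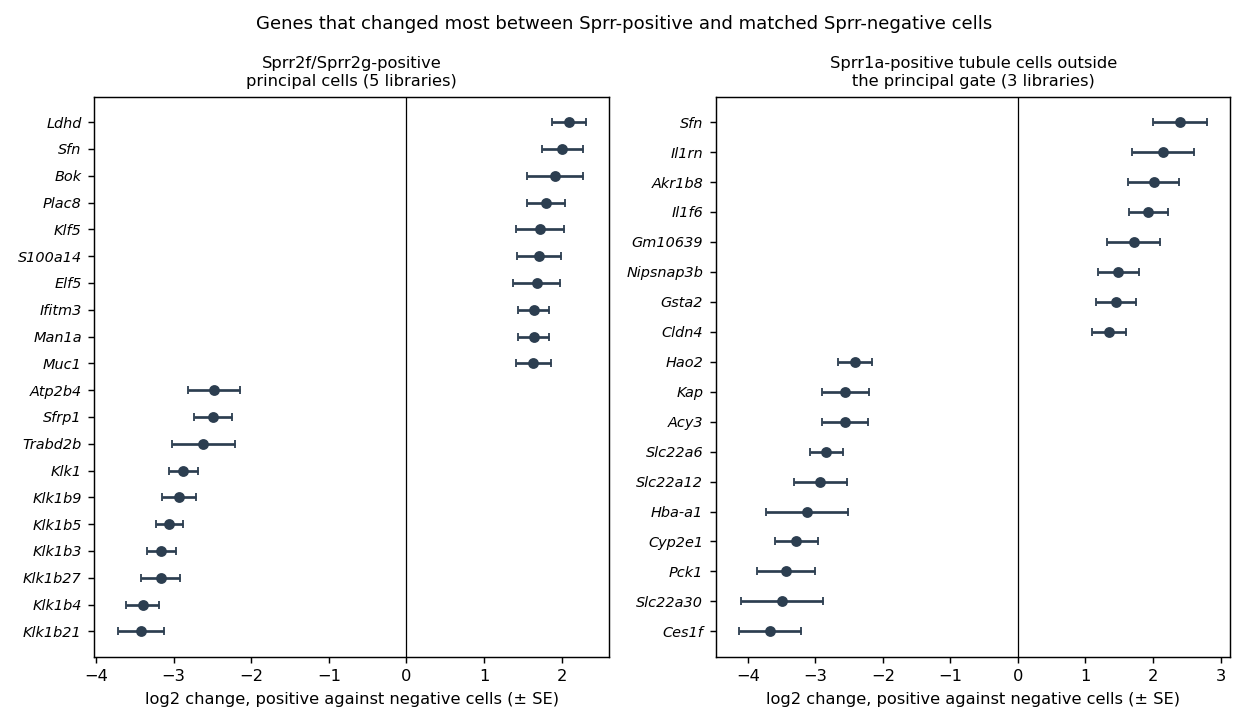
Genes among those that differed most between Sprr-positive and matched Sprr-negative cells. The horizontal axes give the log2 change with its SE from edgeR, for Sprr2f and Sprr2g in principal cells over 5 libraries (left) and for Sprr1a in other tubule cells over 3 libraries (right). Sfn is among the highest in both, at 2.01 and 2.40, while kallikreins are lowest on the left and proximal tubule genes on the right.

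Of 4013 genes tested in both comparisons, 226 passed for the Sprr2 genes in principal cells and 84 for Sprr1a elsewhere, and 18 passed in both, which is 7.96% of the first and 21.4% of the second. The overlap is to be read beside those 226 and 84 of 4013 genes. Over the larger sets of all genes tested in each comparison, 5.53% of 5929 passed for the Sprr2 genes and 3.19% of 4354 for Sprr1a. The overlap was not tested. Higher in both were Anxa2, Cldn4, Epcam, Krt8, Serpinb9, Sfn and Tubb5. Lower in both were Kap, Kcnj16, Mettl7a1, Mgll, Sult1d1, Syn3, Timp3 and Tmem52b. Kap, a proximal transcript, changed by -0.53 for the Sprr2 genes and -2.55 for Sprr1a. The part of free RNA in its principal cell values was not tested. Opposite in direction were Ccl5 (-1.37 for the Sprr2 genes and 1.31 for Sprr1a), Fuca2 (0.53 and -0.85) and S100g (-2.35 and 1.22), the gene of a calcium-binding protein of the distal nephron. The 2 comparisons used different cells, and their difference was not tested.

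Over the days, the gene lists were followed in principal cells, the cells that held Sprr2f. These sums of principal cells were chosen after seeing the data. At day 7 against the control, 7.98% of 10840 genes passed, 4.26% higher and 3.72% lower, by edgeR's quasi-likelihood test over all 10 libraries with Benjamini-Hochberg adjustment. The control is 1 library, as are days 1, 2 and 4, so the spread in this and the other day comparisons comes from the pairs of days 7, 11 and 14, and the control is assumed to vary like them. Of 27 injured tubule genes 23 were higher and 1 lower, with a median log2 change of 3.19. Clu (clusterin) was higher by 4.77, Spp1 by 3.81 and Cd24a by 0.96, and Lgals3 (galectin 3) was lower by -0.83. Of 13 genes of the Klf, Ets and Grhl list, 2 were higher. Klf4, a factor of barrier epithelia, was at 14.3 CPM (scaled by TMM) in the control, 70.5, 142 and 77.2 at days 1, 2 and 4, 156 and 121 at day 7, 19.2 and 47.8 at day 11 and 13.5 and 32.4 at day 14. The 5 libraries from day 1 to day 7 were above the 1 control library, with a log2 change of 3.26 at day 7 (SE 0.460, adjusted p = 2.71e-05 by edgeR with Benjamini-Hochberg adjustment). Klf5 was at 5.01 in the control, 18.5, 62.6 and 25.2 at days 1, 2 and 4, 17.2 and 36.2 at day 7, 19.2 and 37.8 at day 11 and 12.4 and 7.57 at day 14, a change of 2.48 at day 7 (SE 0.587). Unlike those of Sprr2f, its day 11 values overlapped with those of day 7.

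The gp130, STAT3 and AP-1 list gave other counts in principal cells. Of 14 gp130, STAT3 and AP-1 genes 0 were higher and 3 lower at day 7 by edgeR, beside 4.26% and 3.72% of all genes, Fos (-1.21), Atf3 (-1.19) and Il11ra1 (-1.95). Fos was at 2787 CPM in the control, 1021, 1147 and 1043 at days 1, 2 and 4, 1004 and 1401 at day 7, 2658 and 3138 at day 11 and 1949 and 1768 at day 14. Its highest values were in the libraries with next to no Sprr2f, and a link to Sprr2f was not tested. Stat3 was at 78.7 in the control, 133, 143 and 142 at days 1, 2 and 4 and 132 and 163 at day 7, and did not pass. Of 8 cornified envelope genes 2 were higher, Cstb (cystatin B), by 1.73, and Tgm2 (transglutaminase 2), which was at 0 in the control and at 23.2 and 9.65 at day 7. Of 10 reactive oxygen and glutathione genes 0 passed by edgeR (1 at an unadjusted p under 0.05), and the 1 other Sprr gene tested did not pass.

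At day 14 against day 7, when Sprr2f and Sprr2g were at 0 or 1 UMI in the principal cells of a library, 15.7% of the genes passed there, 8.23% higher and 7.46% lower. Of the injured tubule list 24 of 27 genes were lower and 1 higher. Of the Klf, Ets and Grhl list 4 of 13 were lower, Klf4 (-2.57), Klf5 (-1.50), Klf6 (-0.79) and Ets2 (-1.23). Of the cornified envelope list 1 was higher and 1 lower of 8. At day 11 against day 7 13.6% of the genes passed (7.08% higher and 6.49% lower), and 17 of the injured tubule genes were lower and 1 higher, while in the gp130, STAT3 and AP-1 list 4 were higher and 2 lower. At day 14 against the control 2.29% of the genes passed in principal cells (1.09% higher and 1.20% lower). Both comparisons with day 7 share its libraries.

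In all tubule cells, where the cell mixture changed as well, 35.4% of 15808 genes passed at day 7 against the 1 control library, 16.9% higher and 18.6% lower, by edgeR with Benjamini-Hochberg adjustment and the same borrowed spread. All 28 tested injured tubule genes were higher, with a median log2 change of 4.13 against 0.02 for all genes, among them S100a6 (7.56), Clu (4.85), Spp1 (3.37) and Cd24a (1.64). Of the gp130, STAT3 and AP-1 list 10 of 19 were higher and 1 lower, with Stat3 at 1.71, Fosb at 1.34, Junb at 1.32 and Jun at 0.80. Fosb, Junb and Jun were at -0.51, -0.75 and -0.41 in principal cells alone, where none of the 3 passed (adjusted p = 0.373, 0.0909 and 0.326 by edgeR). Of the Klf, Ets and Grhl list 9 of 16 were higher and 1 lower, with Klf4 at 2.77, Klf6 at 2.32, Elf3 at 2.29 and Ehf at 1.44, which was at -0.43 in principal cells alone and did not pass there. Of the cornified envelope list 5 of 11 were higher and 2 lower, with Cstb at 2.26, Tgm2 at 1.10, Jup (plakoglobin) at 1.09 and Dsp (desmoplakin) at 0.95, and Dsp was at -0.27 in principal cells alone and did not pass there. Of 11 reactive oxygen and glutathione genes 5 were lower, and of 4 other Sprr genes 0 passed. At day 11 against day 7, 44.3% of genes passed (23.1% higher and 21.2% lower) and 27 of 28 injured tubule genes were lower. At day 14 against day 7, 46.3% passed (24.3% higher and 21.9% lower) and all 28 were lower, by a median of -4.06. At day 14 against the control 8.46% passed (4.81% higher and 3.64% lower), and 4 of the 28 were higher and 2 lower. That count, 1337 genes, was 325 without day 14 replicate 2, 563 without day 14 replicate 1, 2312 without day 7 replicate 1, 2229 without day 7 replicate 2, and 2990 with only the control and day 14 fitted.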

How the data were processed

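The authors deposited 1 table of counts per library, genes by cell barcodes, which were read as UMIs because the values are whole numbers. Per the labels' protocols the libraries were Drop-seq, with the 3′ end of the cDNA prepared by a modified Nextera XT protocol. Bowtie2 2.2.7 and the build mm10 are named in the submitters' processing notes, and the counting tool and annotation are not given in the sources used here. The 3 genes, the gene lists and the tests were chosen with earlier results of these data known.

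Barcodes below 500 UMIs or 500 genes, or with over 50% of UMIs from mitochondrial genes, were dropped. The 5% of cells with the highest Scrublet score were left out per library, because its automatic threshold marked 0 to 6 cells per library. A cell entered a gate with at least 3 UMIs of its markers from at least 2 genes and at least 2 times the sum of every other type. Other cells with at least 2 UMIs of general tubule markers, and 2 times those of every non-tubular type, formed the tubule without segment markers. Of 106 marker genes 105, and of 120 list genes 118, were in the tables. Upper limits for 0 counts used 3 counts, and intervals were 95% exact Poisson or Clopper-Pearson ones, which cover counting error only. UMIs of a gate were summed per library and scaled to 1000000 UMIs of the gate (CPM).

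Sums were tested with edgeR 4.0.16 in R 4.3.3 (TMM, filterByExpr, quasi-likelihood test, Benjamini-Hochberg adjustment at 0.05), over all 10 libraries for days and with the library as a block for positive against negative cells. The 3 genes were left out of the second test. Positive cells had at least 2 UMIs, negative cells 0, and libraries with at least 20 pairs were used. The genes named were up to 4 called genes per list with the largest average level, and in positive against negative cells the 10 per direction that changed most among those called with an average log2 level of at least 5 and 1 direction in every library. Markers, overlaps and genes of other comparisons named beside these (Krt19, Aqp4, Emx1 and the 18 shared genes) were chosen after their values were seen. Some genes that the rule names are not reported here. The tests were first tested on simulated data. DESeq2 1.42.0, other scalings, filters, gates and left-out libraries were tried as alternatives. Cells were read with Python 3.11.15 and scanpy 1.11.5, and exact intervals came from scipy 1.17.1.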

Additional observations from a re-analysis of the deposited data

How the results depend on the processing

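In principal cells alone, an alternative chosen after seeing the data, the comparisons of day 7 and day 14 with the control gave 865 and 248 genes and those of day 11 and day 14 with day 7 gave 1471 and 1701, against 5600, 1337, 7007 and 7313 in all tubule cells. There, day 7 against the control turned in sign for Dsp (-0.27), Ehf (-0.43), Jun (-0.41), Junb (-0.75), Fosb (-0.51), Txnrd1 (0.52) and Gsr (0.55), day 14 against the control for Jun (-0.39), day 11 against day 7 for Ehf (0.063), Mt1 (-0.21) and Gsr (-0.17), and day 14 against day 7 for Ehf (0.33), Fos (0.63), Junb (0.15) and Mt2 (0.079). Of these, Fos alone passed in principal cells (adjusted p = 0.0375 by edgeR). Day 14 against the control gave 2410 genes with no filter on low counts and 2990 with only these 2 groups fitted. Positive against negative tubule cells gave 223 genes by DESeq2, 3280 without matching on depth, where Cstb turned to -0.15, 328 for principal cells (155 by DESeq2) and 139 for Sprr1a outside them (48 by DESeq2), where 1600029D21Rik turned to -0.47. The causes of these changes were not tested.

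With each library of days 7, 11 and 14 left out in turn, day 7 against the control gave 4977 to 5378 genes, day 14 against the control 325 to 2312, day 11 against day 7 4510 to 6488 (4510 without day 11 replicate 2) and day 14 against day 7 5116 to 7065. The count for day 14 against the control was 325 without day 14 replicate 2, 563 without day 14 replicate 1, 2312 without day 7 replicate 1 and 2229 without day 7 replicate 2. Positive against negative cells gave 255 to 664 genes in the tubule, 204 to 379 in principal cells and 48 to 364 for Sprr1a.

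Over the genes kept by the filter, deviations of equal replicate numbers correlated at 0.062 for days 7 and 11. They correlated at -0.016 for days 7 and 14 and at -0.058 for days 11 and 14. A batch acting on part of the genes was not tested for. With a replicate block the 4 day comparisons gave 5147, 969, 7112 and 7418 genes.

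With all cells summed in place of the tubule, Sprr2f was at 728, 168, 111 and 126 CPM at days 1, 2, 4 and 7, Sprr2g at 161, 72.4, 37.4 and 37.4, and Sprr1a at 40.4, 37.5, 48.6, 50.9, 11.5 (day 11) and 0.0271 (day 14). With at most 25% mitochondrial UMIs, Sprr2f was at 958 and 201 at days 1 and 2 and Sprr2g at 193 at day 1. Thinned to 1000 UMIs, the share of tubule cells with Sprr2f was 17.9%, 7.35%, 3.67% and 0.00944% at days 1, 2, 4 and 11 against 26.9%, 12.01%, 5.89% and 0.0344%, with Sprr2g 9.39%, 4.70%, 2.14% and 3.99% at days 1, 2, 4 and 7 against 14.5%, 8.16%, 4.19% and 7.36%, and with Sprr1a 2.43%, 0.797%, 2.67% and 2.29% against 5.16%, 2.32%, 5.77% and 4.18%. Of 1827 alternative values for single named genes, 1640 kept direction and call, 170 lost the call and 17 turned. Tubule cells without segment markers alone were not run, as only day 1 had 20 pairs.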
